A study of Mus musculus with 4 samples.

Results

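The 10 genes described here encode the machinery by which an intestinal cell takes up, stores, exports and senses iron: Ireb2, Aco1, Cybrd1, Slc11a2, Slc40a1, Heph, Tfrc, Fth1, Ftl1 and Epas1. They were examined for binding of SHP, the small heterodimer partner encoded by Nr0b2, a nuclear receptor that cannot bind DNA on its own and works through other factors, in the intestine of fed mice. All 10 were found among the 21887 protein-coding genes of the RefSeq annotation (assembly GRCm38.p6, with coordinates as in mm10). The genes were selected on earlier results of the same peaks, Ireb2 for the enrichment value of its peak, so positions and values below are a description and no test was made on them. A gene is called occupied where the summit of a wild-type peak lay within 5 kb of either end of the gene.

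SHP was immunoprecipitated from chromatin of jejunum and ileum, and the recovered DNA was sequenced (ChIP-seq). The groups were wild-type C57BL/6 mice and SHP-KO mice, which lack the antigen, each with an immunoprecipitated and an input sample, 4 samples in all. Mice of both genotypes were 8 to 12 weeks old, were fasted for 12 h and then had normal chow again for 4 h, so fed and fasted states cannot be compared. Each of 3 sets held tissue pooled from 3 mice. The submitters deposited 1 list of 5775 peaks for the wild type and 1 list of 7 peaks for the knockout, with no list per set, so values carry no replicate error. Read depth is unknown, the inputs were not analysed here, and the lists were filtered differently (the wild type at an irreproducible discovery rate of 0.05). Peak lists hold no expression values, so the tissue could not be checked against marker genes. The duodenum, where most dietary iron is absorbed, is not among the tissues the labels name.

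Iron enters the enterocyte in several steps. Ferric iron is reduced at the brush border by the reductase encoded by Cybrd1 and carried in by the divalent metal transporter encoded by Slc11a2. It is stored in ferritin, built from the heavy and light chains encoded by Fth1 and Ftl1, or exported across the basolateral membrane by ferroportin (Slc40a1), with the ferroxidase hephaestin (Heph) oxidising it on the way. The iron regulatory proteins encoded by Aco1 and Ireb2 bind iron-responsive elements in mRNAs when iron is low, and thereby repress ferritin and ferroportin and stabilise the mRNA of the transferrin receptor (Tfrc). HIF-2alpha, encoded by Epas1, is the oxygen-responsive factor known to raise Cybrd1, Slc11a2 and Slc40a1 transcription in the gut.

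The Ireb2 peak lay over an annotated transcription start, and its sequence is shown first because the strongest value among the iron genes belongs to it. In the RefSeq promoter table the start of Ireb2 is at chr9:54863755 on the plus strand, 1097 bp downstream of the lower end of the gene's full span. The 250 bases before that start, chr9:54863505-54863754 of GRCm38.p6, are printed 5′ to 3′ on the plus strand, with capitals marking the longest run in the promoter window that equals its own reverse complement.
Ireb2: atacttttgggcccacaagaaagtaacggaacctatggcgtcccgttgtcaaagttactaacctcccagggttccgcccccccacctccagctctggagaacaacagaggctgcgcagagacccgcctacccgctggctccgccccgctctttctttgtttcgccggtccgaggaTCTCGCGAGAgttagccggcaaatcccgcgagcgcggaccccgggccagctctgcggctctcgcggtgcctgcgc

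That palindrome, TCTCGCGAGA, occupied bases -75 to -66 counted from the start (-1 is the last base before it). The peak summit was at -60, 10.5 bp from the centre of the palindrome. The window of 300 bases around the start held 28 CpG dinucleotides, against a median of 7 over 32851 promoter windows. That was not particular to Ireb2. The counts were 30 at both starts of Tfrc, 23 for Cybrd1, 20 for the unoccupied Ftl1 and 14 for Aco1. Fth1 had 4 at its first start and 27 at its second. The letters of the palindrome are known from CpG-rich vertebrate promoters, where the protein BANP binds them.

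Wild-type SHP peaks lay at 6 of the 10 genes, Ireb2, Aco1, Cybrd1, Slc11a2, Tfrc and Fth1. Genome-wide, 26.4% of protein-coding genes were occupied by the same rule. Since the genes were chosen with these peaks known, the count of 6 is not read against that share. All 6 summits were inside the gene, between 1 and 2190 bp from an end. Ftl1, Epas1, Slc40a1 and Heph were not occupied. The genes nearest to the 5 kb limit were Fth1 inside it, at 2190 bp, and Ftl1 outside it, at 6916 bp. The median distance to the nearest summit was 1.74 kb over the 10 genes and 56.2 kb over all protein-coding genes. For the same reason these medians are not read against each other. No knockout summit lay within 500 kb of any of the 10 genes, and the nearest was 2.77 Mb from Ireb2, but a list of 7 peaks with another filter cannot show whether a wild-type peak depends on SHP.

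**Figure D1:**
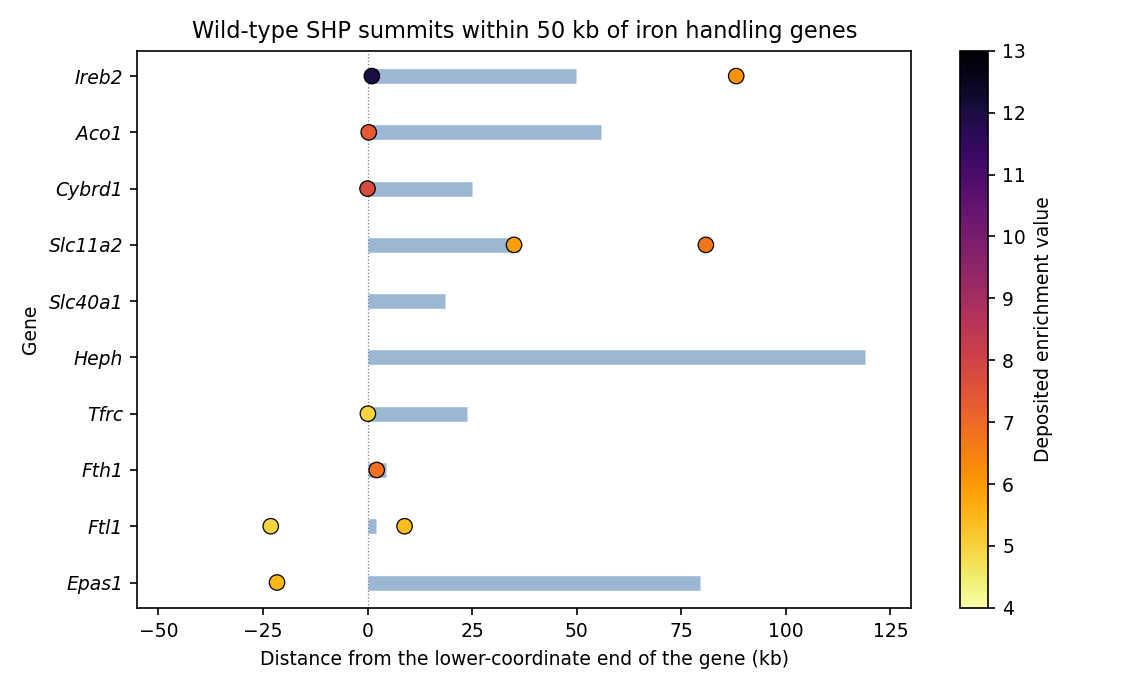
Each row shows a gene as a bar drawn to scale from its lower-coordinate end (0 kb), and each point a wild-type summit within 50 kb of either end, coloured by the deposited enrichment value. Summits sit inside Ireb2, Aco1, Cybrd1, Slc11a2, Tfrc and Fth1, and no summit falls near Slc40a1 or Heph.

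Ireb2 came first in enrichment value, the authors' own signal for each peak, whose scale is not stated. Ireb2, which encodes iron regulatory protein 2, a sensor that is degraded when iron is plentiful, had a peak at chr9:54863486-54864315 with a value of 12.0. That was 2.13 times the list median of 5.65 and the seventh highest of 5775 values. By −log10 p, 51.0, it ranked 10. No other peak had the same combination of enrichment value and −log10 p. At 830 bp the peak was narrower than the median of 978 bp. No other gene of any type had an end within 5 kb of its summit, so the peak had no neighbour to share it with. A second summit 38.3 kb beyond the other end of Ireb2 had a value of 6.16 and lay 14 bp inside Psma4, a proteasome subunit gene.

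Aco1 encodes iron regulatory protein 1, which doubles as the cytosolic aconitase when it carries an iron-sulphur cluster. Its peak, chr4:40142856-40143902, had a value of 7.34 (rank 467), and its summit was 287 bp downstream of the annotated start. As at Ireb2, no other gene had an end within 5 kb. Both iron regulatory protein genes were thus occupied, Ireb2 at the higher value.

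At the apical membrane, both genes had peaks. Cybrd1 had its summit 1 bp downstream of the annotated start, in a peak at chr2:71117804-71118572 with a value of 7.78 (rank 243). An end of Dcaf17, a gene of the ubiquitin ligase system, was 1643 bp from the same summit. Slc11a2 had a peak at chr15:100422547-100423275 with a value of 5.92 (rank 2361), its summit 1286 bp inside the upper end of the gene and 270 bp from an end of the long noncoding RNA gene Gm5475. A further summit 44.6 kb from Slc11a2 had a higher value, 6.74, and lay 419 bp from an end of another noncoding gene, 5330439K02Rik.

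The export genes had none. The nearest summit to Slc40a1, the only known cellular iron exporter of mammals, was 2.82 Mb away, and 3.94% of protein-coding genes were farther from a summit than that. For Heph the distance was 2.33 Mb, with 4.84% of genes farther. Heph is on the X chromosome, which held 36 of 5775 wild-type peaks, and 19 of 966 X-linked protein-coding genes (1.97%) were occupied. The part of the chromosome in the absence of a peak at Heph was not tested. In distance, the export genes Slc40a1 and Heph lay over 2 Mb from a summit, and the apical uptake genes Cybrd1 and Slc11a2 within 1286 bp. The genes on each side are few and were chosen with these peaks known, so the contrast describes only these genes.

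Tfrc, through which cells take up transferrin-bound iron, mostly from the blood side in enterocytes, had the lowest value of the occupied genes. Its peak at chr16:32608717-32609565 had an enrichment value of 4.96 (rank 4240), below the list median, with the summit 84 bp downstream of the first of 2 annotated starts and 142 bp upstream of the other. The same combination of enrichment value and −log10 p (14.8) occurred in 40 peaks of the list, so the Tfrc value does not rank it among them.

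The ferritin genes differed. Fth1, the heavy chain with ferroxidase activity, had a peak at chr19:9982407-9983364 with a value of 6.85 (rank 875) and the higher rank of 159 by −log10 p (25.8). Its summit was 2190 bp from the lower end of the gene span but 144 bp downstream of the second annotated start, chr19:9982646. An end of Best1, a chloride channel gene, was 2382 bp from that summit. Ftl1, the light chain, had its nearest summit at 6916 bp, and this summit (5.39) was 101 bp inside Bax, a gene of apoptosis. A second summit 23.1 kb from Ftl1 (4.96) was 34 bp from an end of Gys1, the muscle glycogen synthase gene. Ftmt, the mitochondrial ferritin gene, had no summit within 1 Mb.

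Epas1 had no peak within 5 kb. The nearest, 21.6 kb outside its lower end at chr17:86732038-86732481, had a value of 5.50 and a width of 444 bp, and no gene of any type had an end within 5 kb of its summit.

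**Figure D2:**
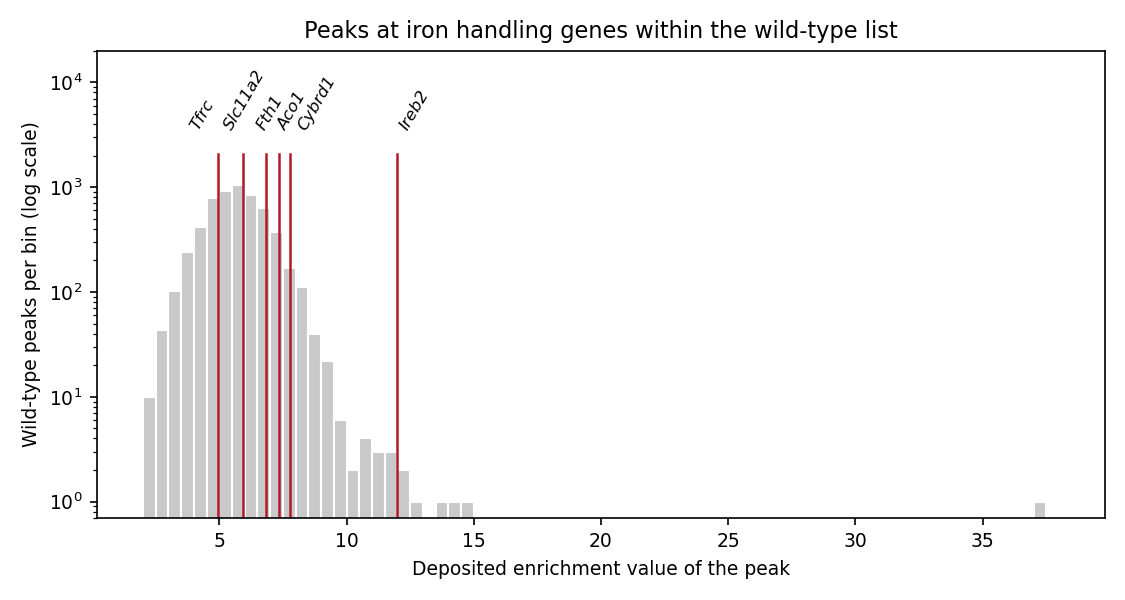
Grey bars give the number of wild-type peaks per bin of 0.5 in the deposited enrichment value (log scale on the y axis), and red lines mark the peak of each occupied iron gene. Ireb2 (12.0) lies in the thin upper tail, Cybrd1 (7.78), Aco1 (7.34), Fth1 (6.85) and Slc11a2 (5.92) lie above the median of 5.65, and Tfrc (4.96) lies below it.

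The distance to a gene end understated how close some peaks were to a start. Within 1 kb of an end, 3 of the 10 genes had a summit (Aco1, Cybrd1 and Tfrc), against 20.7% of all protein-coding genes. The promoter table holds starts for 6 of the 10, namely Ireb2, Aco1, Cybrd1, Tfrc, Fth1 and Ftl1. Of these, 5 had a summit within 1 kb of an annotated start, all but Ftl1, against 22.1% of the 17492 protein-coding genes in that table. The 10 genes were chosen with these peaks known, so neither count is read against its share. Ireb2 and Fth1 were the genes that differed between these rules, because each has a gene model that begins farther upstream. From upstream to downstream, the summits lay at -60 bp for Ireb2 and 1, 84, 144 and 287 bp past the start for Cybrd1, Tfrc, Fth1 and Aco1. Slc11a2, Slc40a1, Heph and Epas1 had no entry in that table.

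**Figure D3:**
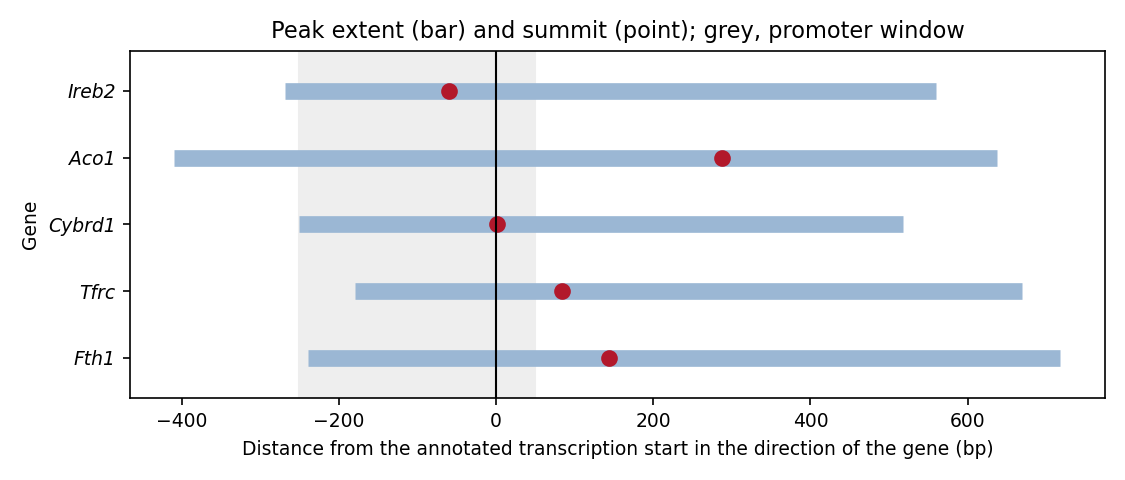
Bars give the extent of the wild-type peak and red points its summit, as the distance in bp from the nearest annotated start (0) in the direction of transcription, and the grey band marks the promoter window of 250 bases before to 50 after the start. All 5 peaks span the start, and the Ireb2 summit is the one upstream of it, at -60 bp.

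Promoter sequences of other occupied genes are shown for comparison with Ireb2, because each of them is covered by its peak. For Aco1 (chr4:40143165-40143264), Cybrd1 (chr2:71117954-71118053) and the second start of Fth1 (chr19:9982546-9982645), the last 100 bases before the start are given, all on the plus strand, with capitals for GC boxes (GGGCGG on either strand), the sites of SP and KLF factors. For the first start of Tfrc (chr16:32608796-32608905, plus strand) 10 bases after the start are included, and capitals mark ACGTG, the core of the hypoxia response element.
Aco1: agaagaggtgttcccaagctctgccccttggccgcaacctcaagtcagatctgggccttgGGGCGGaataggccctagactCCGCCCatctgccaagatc
Cybrd1: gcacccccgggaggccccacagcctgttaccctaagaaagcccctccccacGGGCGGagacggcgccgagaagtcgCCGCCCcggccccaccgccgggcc
Fth1: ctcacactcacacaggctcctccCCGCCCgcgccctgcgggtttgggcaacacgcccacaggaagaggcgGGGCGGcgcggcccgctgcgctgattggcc
Tfrc: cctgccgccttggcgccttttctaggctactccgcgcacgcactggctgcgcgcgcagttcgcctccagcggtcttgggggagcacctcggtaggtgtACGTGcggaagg

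Motifs were searched on both strands in the 8 windows of the 6 genes. ACGTG was found in 2 of the 8 windows, both of Tfrc, and at none of the other 5 genes, and 19.6% of all 32851 windows hold it. The 2 Tfrc windows overlap, and the match in both is the same genomic site. No window of the 6 genes held TGACNNNGC, the core of the antioxidant response element known from ferritin genes (12.4% of all windows), AAGGTCA, the half-site bound by NR5A receptors such as the SHP partner LRH-1 (4.72%), or CACGTG, the E-box bound by TFEB and its relatives (7.15%, each also a match to ACGTG). These 4 were listed in the design. After the sequences had been seen, GC boxes were counted. They occurred at all 6 genes, Ftl1 included, in 6 of their 8 windows, and in 35.7% of all windows. Of all 1559 wild-type peaks with the summit inside a promoter window, 83.0% had a GC box there, so its presence is not particular to these genes. CCAAT, also counted after the sequences had been seen, was found at Ftl1, Tfrc and Fth1, in 3 of the 8 windows, and in 37.4% of all windows.

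The palindrome of the Ireb2 window was in none of the windows of the other 5 genes and in 153 (0.466%) of all windows. Among the 86 further iron genes listed below, 68 had a window, and the palindrome occurred at 2 of them, Ncoa4 and Ciapin1, both occupied. A wild-type summit lay inside 105 of the 153 windows with the palindrome (68.6%) and inside 5.26% of the 32698 windows without it. Among windows with at least 20 CpG dinucleotides, these shares were 73.6% of 125 and 18.1% of 8576, with a median of 27 and 28 CpG. Windows of nearby starts can overlap and were counted separately. The 105 windows with the palindrome and a summit held 79 peaks, that of Ireb2 included. In these 79 peaks, the median distance between summit and palindrome centre was 19.5 bp (interquartile range 10.5 to 33.5). The search was made because the Ireb2 sequence had been seen, and what binds the palindrome in these samples was not measured.

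The palindrome was also present at other strong promoter peaks. Of 12 peaks with an enrichment value of at least 10 and the summit inside a promoter window, 7 had it (58.3%). Ireb2, from which the palindrome was taken, is 1 of these, and among the other 11 peaks 6 had it (54.5%). From the weakest to the strongest class below them, the counts were 3 of 122 peaks under 4 (2.46%), 28 of 899 from 4 to 6 (3.11%), 29 of 468 from 6 to 8 (6.20%) and 12 of 58 from 8 to 10 (20.7%). GC boxes did not follow that order, with 87.7% in the lowest class and 75% in the highest. The 7 promoters belong to Atp5pb and Wdr77, which share theirs, Ube2d3, Ireb2, Micos10, Supt5, Psmd5 and Tmco1, with enrichment values of 12.9, 12.1, 12.0, 11.7, 11.2, 10.8 and 10.2. Peaks at Denr (14.2), Gm38963 (13.8), Gm27011 (11.6), Eif4a3 (11.5) and Ssbp1 (10.8) lacked it. The peak in the Gm27011 window was also the strongest within 5 kb of Banp itself, its summit 2708 bp from an end of that gene. For each of the 7, 30 bases in the direction of the gene are printed to show that the flanks differ while the capitals, the palindrome, are shared.
Ireb2 (chr9:54863670-54863699, plus strand): ggtccgaggaTCTCGCGAGAgttagccggc
Atp5pb (chr3:105959441-105959470, minus strand): tcgctctactTCTCGCGAGAattgtgtcta
Ube2d3 (chr3:135438314-135438343, plus strand): gccacgaggtTCTCGCGAGAtccgccacct
Micos10 (chr4:139131038-139131067, minus strand): ggcggccggcTCTCGCGAGActtgccatca
Supt5 (chr7:28338754-28338783, minus strand): acgcgccagtTCTCGCGAGAgagcgctcag
Psmd5 (chr2:34871015-34871044, minus strand): tgagaaaggaTCTCGCGAGActtgacagat
Tmco1 (chr1:167308595-167308624, plus strand): gctttccaacTCTCGCGAGAccgggcctgg

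**Figure D4:**
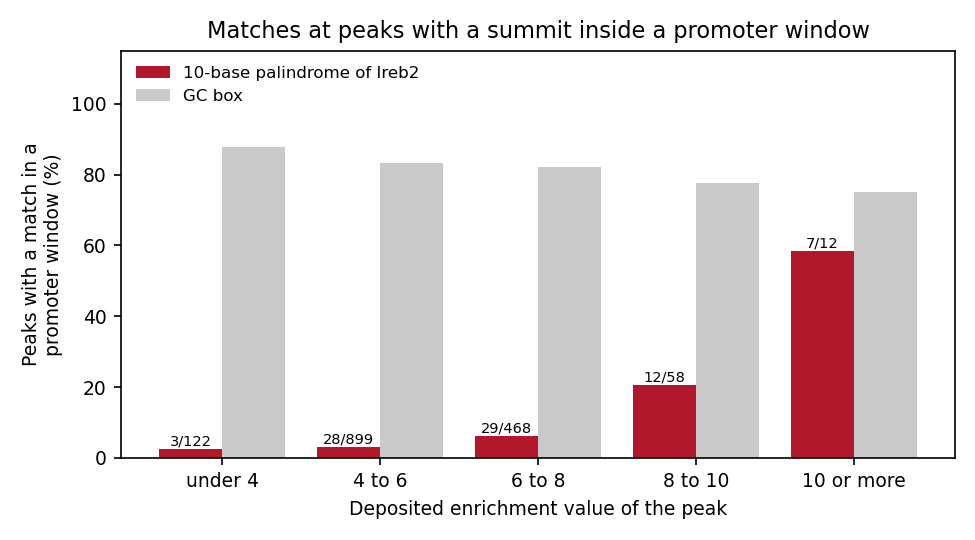
Bars give the percent of wild-type peaks, among those with the summit inside a promoter window, whose window holds the palindrome of Ireb2 (red, with counts above) or a GC box (grey), by class of the deposited enrichment value. The red share is 2.46% in the lowest class and 58.3% in the class that holds Ireb2, and the grey share is 87.7% and 75%. Without Ireb2, from which the palindrome was taken, the red share in the highest class is 54.5% (6 of 11).

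The genes most like Ireb2 in the value of their peak and its distance from a gene end were then listed. Among 838 other genes whose strongest summit within 5 kb was inside the gene and 500 to 2000 bp from an end, the closest in enrichment value were Puf60, a splicing factor gene (11.0), Actb, cytoplasmic actin (9.48), Rbp4, retinol-binding protein (8.88), Spsb3, a ubiquitin ligase adaptor (8.79), and Mfsd11 (8.39). All were below the 12.0 of Ireb2. Their distances from an end were 1592, 1233, 607, 622 and 843 bp, against 1037 bp for Ireb2. From the nearest annotated start the summits were 97 bp for Rbp4, 39 bp for Spsb3 and 708 bp for Mfsd11, against 60 bp for Ireb2. No start was available for Puf60 and Actb. The Spsb3 peak is the same as the Nubp2 peak named below. The likeness rests on 1 list, and among the genes with a summit so placed it was ranked by enrichment value alone.

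Some mRNAs known to carry iron-responsive elements were also set side by side by the position of the element. Among those with the element before the coding sequence, 1 of 5 genes was occupied, Fth1, while Ftl1, Slc40a1, Epas1 and Alas2 were not. Both of the genes with the element after the coding sequence, Tfrc and Slc11a2, were occupied. These groups are too small to compare, and most of their genes were among the 10 chosen.

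Around these 10 genes, 86 further iron genes in 4 lists had summits within 5 kb at 35 members (40.7%), beside 26.4% of all protein-coding genes. These lists too were chosen with earlier results of these data known, so the shares are a description and show no excess at iron genes. The list of iron sensing and oxygen control had 11 of 14, and 3 of its genes had the highest values: Pcbp2, an iron chaperone and RNA-binding protein (8.36), Ncoa4, the receptor that delivers ferritin to autophagy (7.56), and Fbxl5, the ubiquitin ligase subunit that degrades iron regulatory protein 2 (6.69). Arnt, the partner of HIF-2alpha, had a value of 5.10, Egln2 and Egln3, prolyl hydroxylases that mark HIF proteins, 5.81 and 4.35, and the heme- and stress-responsive regulators Bach1, Keap1 and Nfe2l2 had 6.55, 5.76 and 4.04. Hif1a, Vhl and Egln1 were not occupied, with nearest summits at 6.72, 65.5 and 10.9 kb. The median distance to a summit in this list was 173 bp.

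Genes of mitochondrial iron and iron-sulphur cluster assembly had 15 of 30, beside 26.4% of all protein-coding genes. Nubp1 and Nubp2, scaffold proteins of cytosolic cluster assembly, had values of 9.17 and 8.79, and Nfs1, the cysteine desulphurase that supplies sulphur, had 7.75. Iscu, the mitochondrial scaffold, had 5.40. Peaks at Nubp2 and Nfs1 were also near other genes. The Nubp2 summit lay 254 bp outside Nubp2 and inside Spsb3, 622 bp from an end of Spsb3 and 39 bp from its nearest annotated start. An end of Romo1 was 143 bp from the Nfs1 summit. Counting only the nearest protein-coding gene left 12 of the 30 genes in this list, beside 21.0% of all protein-coding genes. The mitochondrial iron importer Slc25a37 was not occupied, with the nearest summit 790257 bp away, whereas the related importer Slc25a28 was (5.83).

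Heme genes had 5 of 21 (23.8%), near the 26.4% of all protein-coding genes. Among them Alas1, the first enzyme of heme synthesis in most tissues, had a value of 6.28, and Urod, a later enzyme, had 5.85, where an end of Hectd3 (174 bp) was closer to the summit than that of Urod (1034 bp). The inducible heme oxygenase Hmox1 had no summit within 50 kb and the constitutive Hmox2 had one of 5.80.

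Iron transport and systemic iron control had 4 of 21 (19.0%), beside 26.4% of all protein-coding genes. Hfe, which takes part in the sensing of transferrin, had a value of 7.92, but its summit was 3601 bp outside the gene and 25 bp from an end of the histone gene H4c3. Neo1, a co-receptor of the hepcidin pathway, had 6.93, and Erfe, the erythroid hormone that lowers hepcidin, 6.29. Hamp, which encodes hepcidin, Tfr2, Trf, Cp and the heme carrier Slc46a1 were not occupied. The median distance to a summit was 33.4 kb in this list. The place of the transport and heme lists below the share of all protein-coding genes turned under some other rules. Within 50 kb, 61.9% and 66.7% of their genes had a summit against 48.2% of all, and with peaks whose −log10 p reached the median both lists had 19.0% against 14.8%. Expression was not measured, so the lists could not be matched on it, and no test between them was made.

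**Figure D5:**
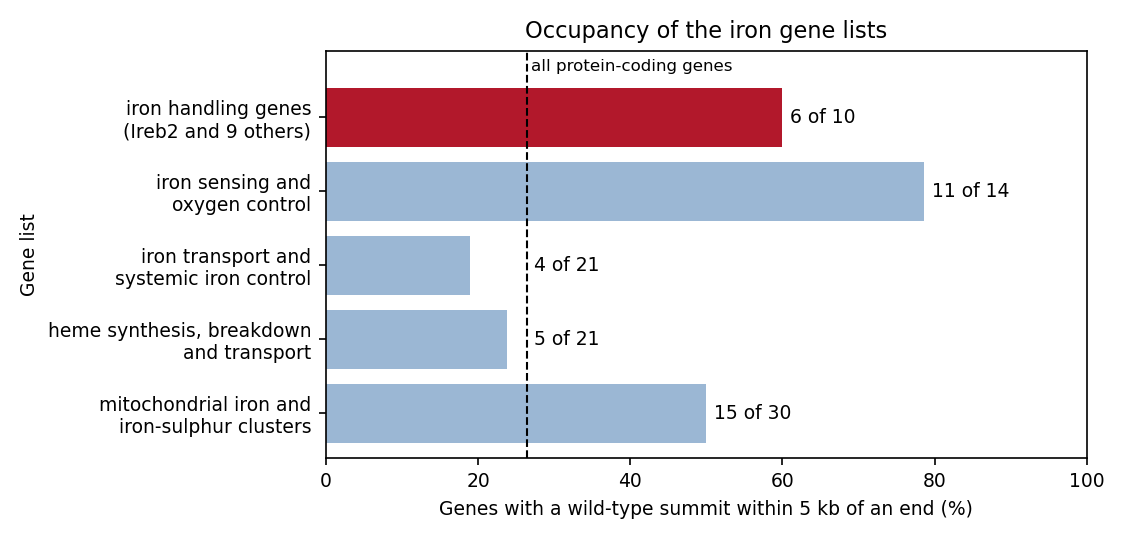
Bars give the percent of genes in each list with a wild-type summit within 5 kb of an end, with the counts beside them, and the dashed line marks all protein-coding genes (26.4%). The list of iron sensing and oxygen control (11 of 14) has the longest bar, and iron transport and systemic iron control (4 of 21) and heme (5 of 21) lie left of the line, a side that turns within 50 kb and with peaks whose −log10 p reached the median.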

How the data were processed

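The submitters' processing notes name CASAVA 1.4, BWA and the build mm10. Which caller made the peaks, whether input served as control, and whether sets were pooled is not given in the sources used here. Both deposited files are headerless and have the 10 narrowPeak columns: a score (540 to 1000 in the wild-type list), a signal called the enrichment value here, −log10 p and −log10 q, all as deposited by the authors, and the offset of the summit. These values describe peaks within a list and were not compared between genotypes.

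Coordinates were made 1-based. Distances ran from each summit to the nearer end of each gene in RefSeq (GRCm38.p6), and to annotated starts from the RefSeq promoter table. Analyses used Python 3.11.15, numpy 2.4.6 and pandas 2.3.3. The distance rules were tested on simulated data. Members, gene lists and rules were chosen with earlier results of these data known. Named genes were the 10 members, up to 3 genes with the highest enrichment value per list, other genes with an end within 5 kb of a member's summit, and the 5 most like Ireb2. Some genes that the rule takes are not reported here. Other genes, such as Arnt, Hif1a, Iscu and those with the palindrome, were named after their values had been seen. No p-value was computed.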

Additional observations from a re-analysis of the deposited data

How the results depend on the processing

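With 1 list per genotype there were no replicates to leave out, and read depth is unknown. No paired analysis was possible because each genotype has 1 list. Summits within 1 kb of an end left 3 of the 10 genes and 2 of 21 transport genes (9.52%). That rule left 20.7% of all protein-coding genes. Summits within 50 kb gave 62 of 86 further iron genes, 13 of 21 transport and 14 of 21 heme genes, against 48.2% of all protein-coding genes. Counting only the nearest gene left 2 transport genes (9.52%), against 21.0% of all. Peaks at or above the 75th percentile of the enrichment value left 12 of the 86 genes. By list, these were 5 sensing, 2 transport, 1 heme and 4 genes of mitochondrial iron and iron-sulphur cluster assembly, the cytosolic Nubp1 and Nubp2 included. Of all protein-coding genes, 6.89% were left. Transport genes then lay above that share (9.52%) and heme genes below it (4.76%). These peaks also left 4 of the 10 (Ireb2, Aco1, Cybrd1 and Fth1). With annotated starts, 2 of 17 transport genes had a summit within 5 kb and also within 1 kb, and 3 and 2 of 17 heme genes, against 24.3% and 22.1% of all genes with a start. The rank of the Ireb2 peak was 10 by −log10 p. Without its outer bases the palindrome (CTCGCGAG) was at 66.7% of the strongest promoter peaks, Ireb2 included. Within 1 kb of an end Ireb2 has no peak and so no value. The 1 kb rule for starts and the shorter palindrome were chosen after the data were seen. In the other 37 of 54 comparisons with an alternative, counts stayed within 1.5 times or values did not change. Counts do not show the side against all protein-coding genes, which turned from below to above for the transport and heme lists within 50 kb and with peaks whose −log10 p reached the median (19.0% in both, against 14.8%). The cause of the changes beyond fewer or more peaks or genes counted was not tested.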
